A study of Mus musculus with 38 samples.

Results

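The genes described here are 10 neuroendocrine and social peptide genes of the hypothalamus (Hypo), chosen by symbol from the 54165 genes of the count table: Oxt, Avp, Crh, Trh, Ghrh, Gnrh1, Kiss1, Tac2, and Pdyn, which encode secreted peptides, and Oxtr, which encodes the oxytocin receptor. Each symbol matched 1 row of the table. RNA-seq libraries were made from the Hypo of 18 mice and the prefrontal cortex (PFC) of 20 mice, 38 libraries from 25 mice, of which 13 gave both tissues. All mice were adult, of the FVB/NJ strain, and unmated, and they were either wild type (WT) littermates or Ube3a2X mice, which are homozygous for a Ube3a transgene and therefore carry extra copies of this ubiquitin ligase gene beside the endogenous one. In Hypo, each sex was represented by 4 WT and 5 Ube3a2X libraries, and in PFC each of the 4 groups by 5. The Hypo was excised with tweezers and the PFC was taken as micropunches, so 1 Hypo library averages over many hypothalamic nuclei. The stage of the estrous cycle is not given in the sources used here. The mouse line is a single transgenic line, and genotype here cannot be told apart from any effect of where the transgene sits.

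The hypothalamus steers the pituitary and the autonomic nervous system through small groups of peptide neurons. Large magnocellular neurons of the paraventricular and supraoptic nuclei make oxytocin or vasopressin and release them into the blood from the posterior pituitary, and other neurons send the same peptides into the brain, where they act in social recognition, affiliation, and aggression. Parvocellular neurons release corticotropin-releasing hormone (Crh), thyrotropin-releasing hormone (Trh), growth hormone-releasing hormone (Ghrh), and gonadotropin-releasing hormone (Gnrh1) toward the anterior pituitary. In the arcuate nucleus, neurons that make kisspeptin (Kiss1), neurokinin B (Tac2), and dynorphin (Pdyn) sense estrogen and set the pulses of gonadotropin-releasing hormone, and estrogen lowers Kiss1 and Tac2 there.

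The promoters of Oxt and Avp, which varied together, and of Tac2, Kiss1, Oxtr, and Pdyn are printed first. The latter 4 were called for sex in the model of the study or in the fit without its read and variance filters. The printed genes differ in how many copies of a short hormone receptor sequence lie next to their start. Sequences are from RefSeq (GRCm38.p6), from 250 bases before to 50 bases after a RefSeq start of the gene, written 5′ to 3′ on the strand of the gene. These starts are not always the ends of the gene models given further on: the Kiss1 start lies 5337 bases inside its model, those of Ghrh 851 and 10080 bases inside, the second of Pdyn 1186, and that of Oxtr 118, while the others lie at the start of the model or up to 94 bases upstream. Capitals mark TGACC on either strand, the 5-base core that nuclear receptors such as the estrogen receptor can bind; on the opposite strand it reads GGTCA. Of the 10 members, 8 had a promoter in the table, and Crh and Gnrh1 are named only.
Oxt promoter, chr2:130575919-130576218 +: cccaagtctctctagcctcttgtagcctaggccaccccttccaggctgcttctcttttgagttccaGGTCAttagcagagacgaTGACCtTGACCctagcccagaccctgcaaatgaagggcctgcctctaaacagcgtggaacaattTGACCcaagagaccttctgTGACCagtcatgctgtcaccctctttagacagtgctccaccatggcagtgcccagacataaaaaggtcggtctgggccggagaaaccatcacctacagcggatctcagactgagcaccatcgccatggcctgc
Avp promoter, chr2:130582539-130582838 -: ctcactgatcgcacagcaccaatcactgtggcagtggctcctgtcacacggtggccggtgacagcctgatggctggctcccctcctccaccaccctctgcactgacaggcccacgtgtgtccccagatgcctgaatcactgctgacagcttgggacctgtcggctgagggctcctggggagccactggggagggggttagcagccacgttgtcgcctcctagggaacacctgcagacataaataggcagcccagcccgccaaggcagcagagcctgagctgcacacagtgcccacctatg
Tac2 promoter, chr10:127724228-127724527 +: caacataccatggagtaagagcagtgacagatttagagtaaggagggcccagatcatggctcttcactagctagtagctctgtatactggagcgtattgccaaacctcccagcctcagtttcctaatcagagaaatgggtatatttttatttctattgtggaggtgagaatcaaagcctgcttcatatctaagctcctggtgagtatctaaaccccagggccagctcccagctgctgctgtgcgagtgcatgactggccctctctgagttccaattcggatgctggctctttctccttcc
Kiss1 promoter, chr1:133326962-133327261 +: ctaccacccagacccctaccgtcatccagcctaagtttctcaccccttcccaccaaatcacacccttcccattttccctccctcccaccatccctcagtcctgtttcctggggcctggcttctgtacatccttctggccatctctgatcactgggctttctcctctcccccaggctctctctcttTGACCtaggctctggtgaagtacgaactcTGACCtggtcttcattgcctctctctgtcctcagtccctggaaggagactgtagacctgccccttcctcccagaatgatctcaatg
Oxtr promoter, chr6:112489776-112490075 -: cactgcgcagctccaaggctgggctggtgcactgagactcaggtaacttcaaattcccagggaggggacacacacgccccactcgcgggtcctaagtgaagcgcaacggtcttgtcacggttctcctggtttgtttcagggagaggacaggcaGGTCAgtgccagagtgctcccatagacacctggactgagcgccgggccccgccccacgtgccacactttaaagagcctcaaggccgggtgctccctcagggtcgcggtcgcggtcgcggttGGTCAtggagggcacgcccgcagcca
Pdyn start 1 promoter, chr2:129699889-129700188 -: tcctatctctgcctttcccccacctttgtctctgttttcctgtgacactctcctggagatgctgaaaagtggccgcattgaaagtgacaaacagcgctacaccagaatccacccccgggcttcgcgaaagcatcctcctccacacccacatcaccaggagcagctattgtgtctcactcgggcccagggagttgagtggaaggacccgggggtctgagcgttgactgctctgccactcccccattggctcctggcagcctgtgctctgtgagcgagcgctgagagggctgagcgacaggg
Pdyn start 2 promoter, chr2:129698609-129698908 -: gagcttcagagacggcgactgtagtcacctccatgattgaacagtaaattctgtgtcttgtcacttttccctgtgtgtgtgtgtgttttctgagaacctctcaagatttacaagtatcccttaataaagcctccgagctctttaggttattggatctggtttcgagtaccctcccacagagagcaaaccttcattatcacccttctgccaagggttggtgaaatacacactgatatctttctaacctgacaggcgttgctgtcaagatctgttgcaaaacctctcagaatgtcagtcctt

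The Oxt promoter held 5 matches to TGACC, which begin 184, 166, 160, 102, and 83 bases before the start. The neighbouring Avp promoter held 0, as did those of Tac2 and Pdyn. The Kiss1 promoter held 2 matches, 65 and 36 bases before its RefSeq start, and the Oxtr promoter 2, of which 1 lies 97 bases before and 1 lies 24 bases after the start. The starts of Ghrh held 1 and 2, and Trh held 1. At least 1 match was found in 40.5% of 32851 promoters of the same length, so single matches are common, whereas 5 or more were found in 31 promoters (0.0944%). The full estrogen response element, GGTCA and TGACC with 3 bases between them, searched on both strands, was in 0.07% of promoters and in none of the 8 members. The cAMP response element TGACGTCA was in 1.79% of promoters and in none of the members, the E-box CACGTG was in 7.15% and was found in Avp and Oxtr, and the TATA box letters TATAAA were in 13.6% and were found at 1 of the starts of Ghrh. A match is a description of letters, and the absence of one says only that these letters are not in this window.

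Oxt and Avp lie side by side on chromosome 2 and are transcribed toward each other. Oxt lies at chr2:130576173-130577054 on the plus strand and Avp at chr2:130580620-130582554 on the minus strand, and 3565 bases separate their ends (GRCm38). Their transcripts, of 537 and 577 exon bases in 3 exons each, are near-identical over the exon that encodes the conserved core of neurophysin, the carrier protein made with each hormone. The longest stretch that is identical in both transcripts is shown because a read that falls wholly inside it matches both genes equally.
Oxt and Avp shared run: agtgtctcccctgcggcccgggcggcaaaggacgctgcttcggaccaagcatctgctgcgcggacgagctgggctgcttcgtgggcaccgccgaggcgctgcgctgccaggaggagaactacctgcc

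This run of 127 bases covers bases 156 to 282 of the Oxt transcript and 144 to 270 of the Avp transcript. Tac2 lies at chr10:127724478-127731768 (plus strand), Pdyn at chr2:129686565-129699844 (minus), Kiss1 at chr1:133321875-133329901 (plus), Trh at chr6:92242061-92244650 (minus), Ghrh at chr2:157329497-157347506 (minus), Crh at chr3:19693401-19695396 (minus), Gnrh1 at chr14:67745181-67749439 (plus), and Oxtr at chr6:112473683-112489943 (minus). Reads were counted over the exons of each gene. Kiss1 is counted less cleanly than the rest, and the sources used here do not state how a read inside several gene models was counted. All 779 of its exon bases lie inside a readthrough gene model, Gm28040, on the same strand, 498 of them also inside a second copy of that model, and 102 overlap Golt1a, the upstream neighbour, named after its values were seen. In Hypo, the counts of Gm28040 equalled those of Kiss1 in 12 of 18 libraries and differed by at most 3 reads, and Golt1a held 0 to 4 reads. Kiss1 itself held 25 to 438 reads, and the 2 Gm28040 models had equal counts in 18 of 18 libraries. With these gene models, such counts need shared reads to have been counted for more than 1 model. In PFC, Gm28040 exceeded Kiss1 in 20 of 20 libraries by up to 26 reads while Golt1a held 13 to 37, so a PFC count of Kiss1, 2 to 14 reads, is the less certain one.

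The libraries held 39.0 to 380.8 M counted reads in Hypo (M for mega, median 68.9) and 36.9 to 69.1 M in PFC (median 57.6), and the RNA integrity number (RIN) was 6.8 to 9.3 and 6.7 to 8.9. Levels are given as CPM, reads of the gene per M reads of the library, after TMM scaling, and between genes as CPM per kilobase of exon. Ube3a was at 105 to 349 CPM in WT and 706 to 1666 CPM in Ube3a2X Hypo, and at 186 to 268 and 698 to 2269 CPM in PFC, with no overlap. The tissue labels held in every library: the summed level of 10 hypothalamic markers was 133 to 183 CPM in Hypo and at most 0.929 CPM in PFC, and that of 8 markers of cortical projection neurons was 9.22 to 19.7 CPM in Hypo and 1923 to 2661 CPM in PFC. Pituitary markers summed to 42.0 to 966 CPM in 17 Hypo libraries and to 4759 CPM in WT female 471, which also had the fewest reads; its growth hormone gene Gh was at 1057 CPM and its prolactin gene Prl at 3541 CPM. It also had the lowest strand share (95.7% of reads matched the expected strand) and the lowest bias between transcript ends (0.489) of the Hypo libraries, and the neuronal gene Map2 at 992 CPM against at least 1740 CPM in the others. The same library had the highest Hypo level of Oxt, Avp, Crh, Trh, Ghrh, Gnrh1, Kiss1, and Tac2, so results are given with and without it where it moves them. In bulk tissue, fewer cells of a type and less RNA per cell cannot be told apart.

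The first comparison asks which of these genes the Hypo expresses above the PFC. The 3 peptide genes of classical hypothalamic neurons Oxt, Avp, and Ghrh were almost absent from PFC, Trh reads were 79.7 times as frequent in Hypo, those of Gnrh1 and Kiss1 10.96 and 8.20 times, and those of Tac2 and Pdyn 2.57 and 1.97 times. Crh was the only member called lower in Hypo, and for Oxtr no difference was called.

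Oxt was found as 6 reads in the PFC, with none in 15 of 20 libraries, and at 2.59 to 168 CPM in Hypo (median 24.04). Avp was found as 21 PFC reads, with none in 7 libraries, and at 40.8 to 386 CPM in Hypo (median 88.6). Ghrh was found as 39 PFC reads, with none in 5 libraries, and at 4.69 to 16.6 CPM in Hypo (median 7.75). Every Hypo library stood above every PFC library for all 3 genes, and pooled over the libraries their reads were 6648 (95% interval 3054 to 18116), 4421 (2892 to 7143), and 193 (141 to 272) times as frequent in Hypo, intervals that cover counting error only. The log2 fold change, Hypo minus PFC, was 11.83 ± 0.62 (SE) for Oxt, 11.58 ± 0.36 for Avp, and 7.44 ± 0.31 for Ghrh. The adjusted p was 1.88e-18, 3.42e-25, and 2.35e-21 (edgeR quasi-likelihood test, Benjamini-Hochberg over 22282 genes). These values depend on the prior count since PFC reads are so few. The 3 genes passed the read filter, filterByExpr over the 8 groups, only through Hypo. Their direction was thus fixed before the test, and these p add no support to the counts.

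Trh, the thyrotropin-releasing hormone gene, ranged over 56.9 to 143.7 CPM in Hypo (median 96.2) and 0.366 to 2.57 CPM in PFC (median 0.976), and did not overlap between tissues (pooled ratio 79.7). Gnrh1 was at 0.869 to 2.30 CPM in Hypo (median 1.28) and 0.0449 to 0.314 CPM in PFC. Kiss1 was at 0.323 to 10.1 CPM in Hypo (median 0.898) and 0.0346 to 0.290 CPM in PFC. Both genes were low in either tissue and did not overlap. Pdyn, which codes for dynorphin and is also made by many neurons outside the Hypo, was at 60.9 to 119.7 CPM in Hypo (median 78.2) and 21.9 to 51.0 CPM in PFC, without overlap. Tac2 was at 6.77 to 43.3 CPM in Hypo (median 17.97) and 3.97 to 12.2 CPM in PFC, and 16 of 18 Hypo libraries stood above all PFC libraries. The 7 members for which every Hypo library exceeded every PFC library stand beside 9.51% of genes tested with such a separation.

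Crh, the releasing hormone of the stress axis, was at 0.439 to 5.41 CPM in Hypo (median 1.19) and 2.63 to 5.35 CPM in PFC (median 4.31). Of the 18 Hypo libraries, 16 stood below all PFC libraries, and WT female 471 stood above all of them. The log2 fold change was -1.48 ± 0.26, adjusted p = 7.02e-06 by edgeR. Oxtr, a receptor of oxytocin with broad cortical expression, was at 8.65 to 13.3 CPM in Hypo and 5.35 to 11.8 CPM in PFC and overlapped widely. Its log2 fold change was 0.24 ± 0.13 (95% interval -0.01 to 0.49), adjusted p = 0.103 by edgeR, so no difference was detected. Without RIN as a covariate it was 0.34 with an adjusted p of 0.00026 by edgeR. With the mouse as replicate block, edgeR over the 13 mice with both tissues gave 0.49 with an adjusted p of 0.00054. That fit also left out RIN, so the block and RIN cannot be told apart in it. With the block and RIN together, limma-voom gave 0.26 with an adjusted p of 0.0681. In all, 8 of 10 members were called higher and 1 lower, where 32.4% and 31.0% of all genes tested were called higher and lower. The 8 include Oxt, Avp, and Ghrh, which passed the read filter only through Hypo. The median log2 fold change was 2.84 for the members and 0.02 for all genes.

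**Figure D1:**
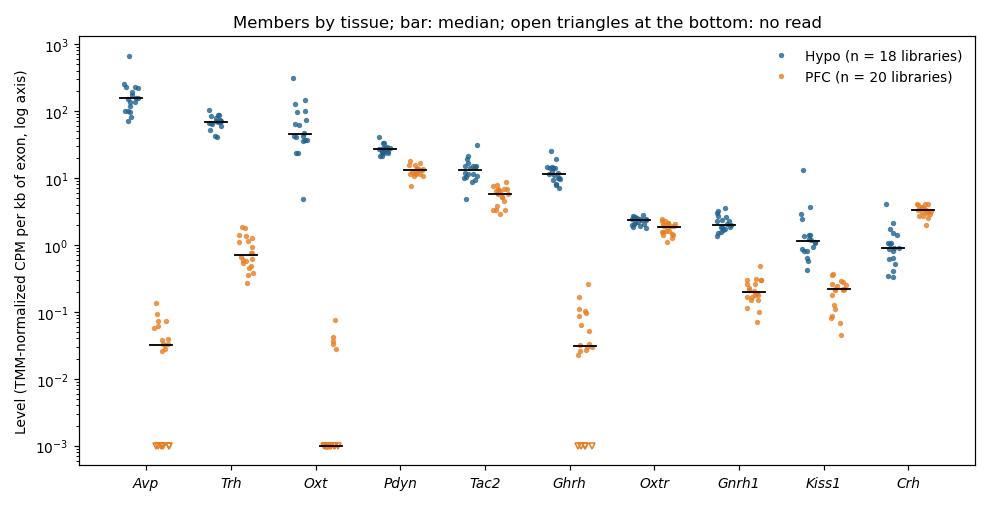
Level of each of the 10 genes in every Hypo (18) and PFC (20) library, in TMM-normalized CPM per kilobase of exon on a log axis; each point is 1 library, the bars are medians, and open triangles at the bottom are libraries with no read. The values of Oxt, Avp, Ghrh, Trh, Gnrh1, Kiss1, and Pdyn do not overlap between tissues, and those of Oxtr do.

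In the lists around the members, calls went both ways. They stand beside 32.4% of all genes tested called higher in Hypo and 31.0% called lower, and no list was tested as a set. Of 13 receptors tested from a list of 14, 8 were higher in Hypo, among them the neurokinin receptors Tacr3 (log2 fold change 4.998 ± 0.158) and Tacr1 (3.07 ± 0.11). The CRH receptor Crhr1 (-1.54 ± 0.16) and the TRH receptor Trhr2 (-1.19 ± 0.23) were the 2 that were lower. The 3 not called include Oxtr, which is also a member. Of 12 genes for peptide processing and storage, 3 were higher, including the granule protein Scg2 (2.65 ± 0.09) and Pam, which amidates peptides (0.79 ± 0.08), and 5 were lower, including the convertase Pcsk2 (-1.34 ± 0.08) and Chgb (-0.88 ± 0.15). Of 5 binding proteins and degrading enzymes, 4 were lower, including the TRH-degrading Trhde (-1.04 ± 0.13) and the prolyl peptidase Prep (-0.54 ± 0.06). Among 6 transcription factors listed for paraventricular and supraoptic neurons, Sim1 (11.23 ± 0.27) and Otp (8.61 ± 0.18) were among 3 that were higher. Fezf2 (-4.12 ± 0.18) and Arnt2 (-1.27 ± 0.09) were among 3 that were lower. Fezf2 is also 1 of the 8 markers of cortical projection neurons, so it does not mark the hypothalamic nuclei alone. Of 21 other hypothalamic peptides, 16 were higher, with the smallest p for Pmch (10.72 ± 0.23) and Gal (8.83 ± 0.28), and 3 lower, among them Cck (-5.05 ± 0.26) and Npy (-1.88 ± 0.22).

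Within Hypo, the members differed widely in level per length. By the median CPM per kilobase of exon the order was Avp (153), Trh (69.5), Oxt (44.8), Pdyn (27.1), Tac2 (13.04), Ghrh (11.6), Oxtr (2.37), Gnrh1 (1.99), Kiss1 (1.15), and Crh (0.899). Avp stood above Trh in 18 of 18 libraries and Ghrh above Oxtr in 18 of 18, so these steps held throughout. Trh exceeded Oxt in 11 of 18 libraries and Tac2 exceeded Ghrh in 11 of 18, and these neighbours did not differ beyond their spread. By mean level per kilobase, with exon lengths from GENCODE vM21, Avp ranked 117 among 53905 genes and Crh 13414. The spread between libraries was also uneven: the highest library over the lowest was 65.0-fold for Oxt, 31.3-fold for Kiss1, 12.3-fold for Crh, and 9.46-fold for Avp, against 1.97-fold for Pdyn and 1.54-fold for Oxtr. Without WT female 471 the spread was 30.6-fold for Oxt, 8.70-fold for Kiss1, 6.42-fold for Crh, and 3.59-fold for Avp. Oxt was thus the most variable member, from 2.59 CPM in Ube3a2X male 238 to 168 CPM in WT female 471.

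The second comparison asks which members differ between the sexes in Hypo. Tac2 was lower in males by 1.59-fold, and no male library reached the lowest female library. Kiss1, counted with the reservation above, was lower in males by 2.29-fold. Smaller shifts were found for Oxtr, lower in males by 1.197-fold, and for Pdyn, higher in males by 1.29-fold. Oxt, Avp, Crh, Trh, Ghrh, and Gnrh1 showed no difference between the sexes that passed the edgeR test over all Hypo libraries.

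Tac2 was at 20.7, 22.7, 29.2, and 43.3 CPM in WT females and at 19.6, 20.1, 20.6, 20.6, and 26.1 CPM in Ube3a2X females. In WT males it was at 12.6, 13.95, 14.8, and 15.996 CPM, and in Ube3a2X males at 6.77, 12.0, 14.1, 15.9, and 16.3 CPM. All 9 males stood below all 9 females, a separation in this direction that 0.0751% of 21311 genes showed, while 0.122% showed the opposite one. The male minus female log2 fold change was -0.67 ± 0.09 (SE), adjusted p = 0.00153 (edgeR, Benjamini-Hochberg over 11869 genes), and it was called in 18 of 18 fits that left out 1 library. Without surrogate variables, with RIN alone, it was -0.87 with an adjusted p of 0.0646.

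Kiss1 was at 0.870, 1.87, 2.81, and 10.1 CPM in WT females and at 0.925 to 2.21 CPM in Ube3a2X females. Males were at 0.323 to 0.962 CPM, and 8 of 9 stood below all females. Kiss1 has fewer than 100 reads in several libraries and was therefore tested without the read filter of the study, over 21311 genes: the log2 fold change was -1.20 ± 0.25, adjusted p = 0.0337 by edgeR. It was called in 7 of 18 fits that left out 1 library, and the adjusted p was 0.0639 by limma-voom, 0.120 with RIN alone, and 0.000124 by DESeq2. Crh was at 0.694 to 5.41 CPM in females and 0.439 to 1.39 CPM in males. Its log2 fold change in the same fit was -0.80 ± 0.21 with an adjusted p of 0.0901, which was not called; without WT female 471 it was -0.90 with an adjusted p of 0.0392, and by DESeq2 the adjusted p was 0.0098. Gnrh1 was at -0.20 (adjusted p = 0.521).

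Oxtr was at 10.1 to 13.3 CPM in females (median 11.8) and 8.65 to 12.3 CPM in males (median 9.66), and 6 of 9 males stood below all females. Its log2 fold change was -0.26 ± 0.06, adjusted p = 0.0424. Pdyn was at 60.9 to 80.7 CPM in females (median 69.6) and 72.1 to 119.7 CPM in males (median 80.5), and 4 males stood above all females. Its log2 fold change was 0.37 ± 0.09, adjusted p = 0.0409. Neither call was firm: of 18 fits that each left out 1 library, Oxtr was called in 4 and Pdyn in 6, the adjusted p of Pdyn was 0.0654 without WT female 471, and with RIN alone the adjusted p was 0.424 for Oxtr and 0.169 for Pdyn. In the model of the study, 1 of 7 members tested was called higher in males and 2 lower, where 1.15% and 1.15% of all genes were called. Without the read and variance filters, Kiss1, Tac2, and Oxtr were the members called, 0 higher and 3 lower, where 0.521% and 0.572% of 21311 genes were called higher and lower.

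Avp was at 40.8 to 386 CPM in females (median 77.9) and 47.5 to 146 CPM in males (median 90.1), and the sexes overlapped throughout. Its log2 fold change was 0.61 ± 0.19 with an adjusted p of 0.123 by edgeR and 0.0458 by DESeq2, and was -0.01 without covariates of any kind. Ghrh was at 0.34 ± 0.14 (adjusted p = 0.217), Oxt at -0.17 ± 0.32 (adjusted p = 0.833), and Trh at -0.07 ± 0.09 (adjusted p = 0.723). For Oxt the 95% interval was -0.81 to 0.47.

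Markers of other hypothalamic nuclei also differed between these libraries. The summed level of the mammillary markers, from the posterior edge of the Hypo, was 25.7 CPM in WT male 245, 37.2 CPM in WT male 251, and 43.0 CPM in Ube3a2X male 404, against 68.4 to 88.3 CPM in the other 15 libraries. Ventromedial markers were at 219 to 347 CPM in females and 292 to 495 CPM in males; most of this sum was Gda (median 211 CPM) and Lmo3 (67.4 CPM), both higher in PFC (519 and 108 CPM), so it does not mark that nucleus alone. Pituitary markers were at 67.3 to 4759 CPM in females and 42.0 to 708 CPM in males. For the 9 genes tested of the arcuate list, which holds Tac2 and Ghrh, the median male minus female log2 fold change was 0.33. Of these 9, 5 were positive, 1 was called higher, and 2 were called lower. For the 4 blood markers tested the median was 0.71, with 4 positive and 0 called. Pdyn was at 119.7, 96.9, and 96.5 CPM in the 3 males with few mammillary reads, its highest 3 values, and the part of these nuclei in the sex difference of Pdyn was not tested. For Tac2, these males were at 12.6, 13.95, and 12.0 CPM, within the range of the other males.

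In the lists around the members, the neurokinin B receptor Tacr3 (log2 fold change -0.41 ± 0.08, adjusted p = 0.0186), the vasopressin receptor Avpr1a (-0.31 ± 0.08, adjusted p = 0.0412), and Oxtr, itself a member, were lower in males by edgeR. They were 3 of 9 receptors tested, with 0 higher, where 1.15% of all genes were called lower and 1.15% higher. The genes called for sex numbered 273, and 83 to 663 when 1 library was left out. Whether the list genes stayed called in those fits was not tested. Trhde, 1 of 4 degrading enzymes and binding proteins tested, was lower in males (-0.39 ± 0.09, adjusted p = 0.0307), and Agrp, an arcuate peptide that promotes feeding, was the only gene called of 14 other peptides (0.83 ± 0.19, adjusted p = 0.0338). None of 11 processing genes and none of 5 paraventricular and supraoptic factors was called. The medians were -0.10 for the receptors, -0.06 for the processing genes, -0.21 for the enzymes and binding proteins, -0.04 for the factors, and -0.08 for the other peptides, against -0.01 for all genes.

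**Figure D2:**
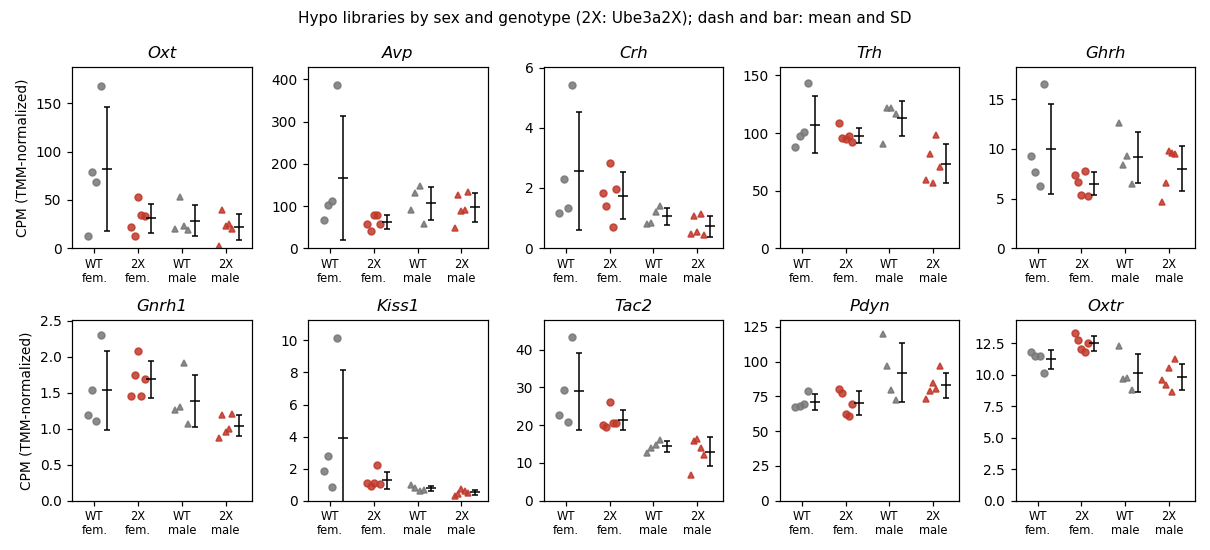
CPM of the 10 genes, 1 panel each, in the 4 Hypo groups (4 WT and 5 Ube3a2X libraries of each sex), with a point for each library and a dash and bar for the mean and SD. All male values of Tac2 lie below all female values, and WT female 471 is the highest point for Oxt, Avp, Crh, Trh, Ghrh, Gnrh1, Kiss1, and Tac2.

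The third comparison asks whether extra Ube3a changes the members in Hypo, on average and in each sex. None of them was called in any contrast. The fitted average level of Oxt was 1.37 times, of Avp 1.29 times, and of Trh 1.16 times as high in WT as in Ube3a2X mice, and these values did not pass the adjustment over all genes. They depended on the covariates: with RIN alone the log2 fold changes, Ube3a2X minus WT, were -0.98, -0.88, and -0.37, against -0.45, -0.37, and -0.22 with the surrogate variables, and none was called. The smallest unadjusted p of any member belonged to Trh in males.

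Oxt was at 12.6, 68.8, 79.2, and 168 CPM in WT females and at 12.5, 22.1, 33.4, 34.1, and 52.7 CPM in Ube3a2X females. In WT males it was at 18.8, 19.9, 22.6, and 53.1 CPM, and in Ube3a2X males at 2.59, 20.05, 22.6, 25.5, and 39.1 CPM. The groups overlapped in both sexes. The log2 fold change, Ube3a2X minus WT, averaged over the sexes, was -0.45 ± 0.32 (95% interval -1.08 to 0.17), and without WT female 471 it was -0.31. Avp was at 67.3, 101, 111, and 386 CPM in WT females against 40.8, 56.4, 57.3, 77.9, and 78.4 CPM in Ube3a2X females, 3 of 5 of which stood below all WT. In males it was at 57.9, 89.99, 129.9, and 146 CPM in WT and 47.5, 87.2, 90.1, 126, and 133 CPM in Ube3a2X mice. The log2 fold change of Avp was -0.37 ± 0.19 on average and -0.61 ± 0.26 in females, unadjusted p = 0.0352 and adjusted p = 0.999 by edgeR in the latter.

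Trh was at 90.5, 117, 122, and 122 CPM in WT males and at 56.9, 59.0, 70.8, 82.1, and 98.6 CPM in Ube3a2X males, 4 of which stood below all WT males. In females the ranges, 87.7 to 143.7 CPM in WT and 92.4 to 109 CPM in Ube3a2X mice, overlapped throughout. The log2 fold change in males was -0.46 ± 0.13, unadjusted p = 0.00291 and adjusted p = 0.524 by edgeR, and the difference between the sexes was -0.49 ± 0.17, unadjusted p = 0.0137 and adjusted p = 0.703. Without WT female 471, the value in males was -0.30 with an unadjusted p of 0.0216, and the difference between the sexes was -0.26 with an unadjusted p of 0.130 (edgeR). Gnrh1 had a difference between the sexes of -0.76 ± 0.26 (unadjusted p = 0.00945, adjusted p = 0.622 over 21311 genes), with 0.37 ± 0.17 in females (unadjusted p = 0.0414) and -0.38 ± 0.19 in males; without WT female 471 the difference was -0.62 and the unadjusted p in females 0.0624, and without WT male 403 the value in males was -0.21. Kiss1 was at -0.59 ± 0.26 on average (unadjusted p = 0.0367, adjusted p = 0.734). Over the fits that each left out 1 library, the average was -0.75 to -0.42 for Kiss1, -0.64 to -0.29 for Oxt, and -0.52 to -0.28 for Avp, with the value of Oxt nearest 0 without WT male 423. None of these passed the adjustment.

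With edgeR, 0 of 7 members tested were called for the average effect of genotype, in females, in males, or for the difference between the sexes, where 0.00843%, 0.00843%, 0%, and 0% of 11869 genes were called. The single gene called on average and in females was Ube3a itself, named after its value was seen. Its log2 fold change by edgeR was 1.97 ± 0.18 on average (adjusted p = 0.000599) and 2.15 ± 0.24 in females (adjusted p = 0.00695). In males 0 genes were called, so Ube3a was missed there, although its Hypo levels did not overlap between genotypes. The absence of a called member in males is to be read with that limit. At an unadjusted p under 0.05 there were 622, 348, 1092, and 819 genes and 1 member in each contrast. DESeq2 called 5, 3, 17, and 0 genes and limma-voom 1, 1, 1, and 0, and 0 members by either. All 7 members had a negative average log2 fold change, as did 54.3% of all genes, with a median of -0.22 against -0.01 for all genes. In the fit without the read and variance filters, which tested all 10 members, 9 were negative and Crh was at 0.06, with a median of -0.16, and 49.1% of genes were negative. Other lists leaned with them: 2 of 14 other hypothalamic peptides (median -0.20), 0 of 9 arcuate markers (-0.13), 0 of 5 ventromedial markers (-0.18), and 0 of 6 markers of ependyma and tanycytes (-0.24) were positive. The arcuate list holds the members Kiss1, Tac2, and Ghrh, shares Agrp, Pomc, and Npy with the other peptides, and shares Otp with the paraventricular factors, and the mammillary list shares Sim1 with the same factors. All 8 oligodendrocyte markers (0.21) and all 5 mammillary markers (0.49) were positive, the latter with a median of 0.02 in females, 3 of 5 positive, and 0.77 in males, and their part in the values of the members was not tested. Oxtr, at -0.02 ± 0.07, was 0.03 with RIN alone and 0.06 without covariates. In females, 4 of 5 Ube3a2X libraries stood above all WT for Oxtr (fitted log2 fold change 0.06 ± 0.09, unadjusted p = 0.491 by edgeR), and 4 of 5 stood below all WT for Tac2 (-0.16 ± 0.12, unadjusted p = 0.206 by edgeR). Of the receptors, processing genes, enzymes, factors, and other peptides, 0 were called for genotype by edgeR.

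**Figure D3:**
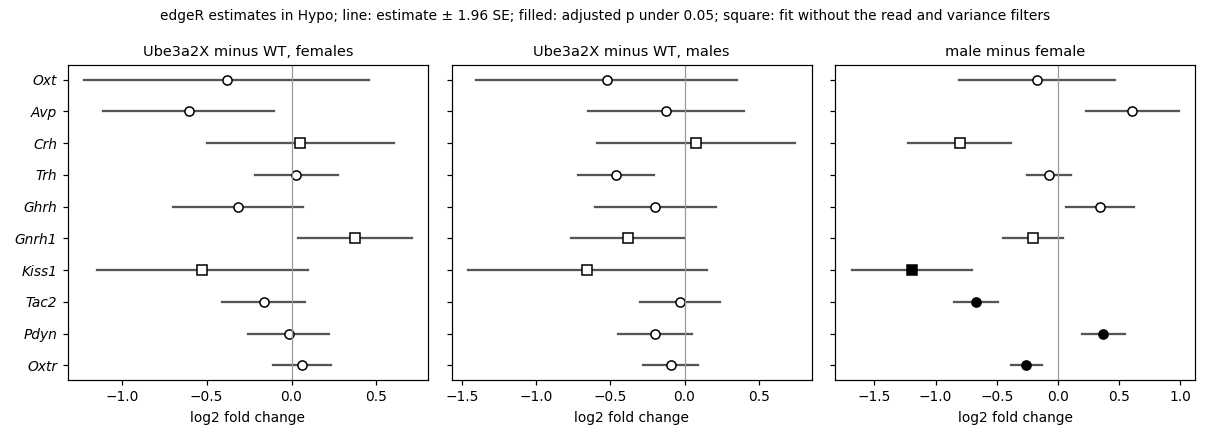
Log2 fold changes of the 10 genes in Hypo from edgeR, for Ube3a2X minus WT in females, the same in males, and male minus female, with lines for the 95% interval; filled symbols passed an adjusted p of 0.05 and squares come from the fit without the read and variance filters. Kiss1, Tac2, and Oxtr are filled below 0 and Pdyn above 0 for sex, and no symbol is filled for genotype.

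The fourth comparison asks which members varied together over the 18 Hypo libraries once the mean of each sex and genotype group was removed. Oxt and Avp, neighbours in the genome and made by adjacent magnocellular neurons, rose and fell together, and so did Pdyn and Oxtr. Over the 45 pairs, 36 correlations were positive, the median r was 0.46, and 12 pairs passed an adjusted p of 0.05 (permutation test, 100000 permutations within groups, Benjamini-Hochberg over 45), 10 of them positive; by Spearman's rho 5 passed. Such covariation was general in these libraries. The 12 pairs had an absolute r of at least 0.55, a size that 40.0% of the 45 pairs reached and that 35.3% of the 155560 pairs of a member and any other gene reached as well, with a median absolute r of 0.51 and 0.44.

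Oxt and Avp had Pearson's r = 0.79 (p = 0.00047, adjusted p = 0.0162, permutation test) and rho = 0.76 (p = 0.00059, adjusted p = 0.0265), and r was 0.71 without the 2 libraries farthest from the median of Oxt, Ube3a2X male 238 and WT female 262. Within females r was 0.84 and within males 0.76. An absolute r of this size was reached by 6.73% of genes with Oxt and by 7.75% with Avp. Pdyn and Oxtr had r = 0.68 (p = 0.00874, adjusted p = 0.0472) and rho = 0.64 (p = 0.00816, adjusted p = 0.0612); without the 2 libraries farthest from the median of Pdyn, WT males 245 and 423, r was 0.43. Within females r was 0.21 and within males 0.84, and it was 0.64 in WT and 0.74 in Ube3a2X mice, which include neither of these males; 0.990% of genes reached an absolute r of this size with Pdyn and 1.08% with Oxtr. Trh and Oxtr ran in opposite directions (r = -0.68, p = 0.00956, adjusted p = 0.0472, rho = -0.65 with p = 0.0148 and adjusted p = 0.0835; r = -0.55 without the 2 farthest). Oxt and Tac2 had r = 0.78 (p = 0.005, adjusted p = 0.045, rho = 0.76 with p = 0.00122; r = 0.60 without the 2 farthest). Ghrh and Kiss1 had r = 0.78 (p = 0.00072, adjusted p = 0.0162, rho = 0.72 with p = 0.00319; r = 0.66). Avp and Gnrh1 had r = 0.78 (p = 0.00222, adjusted p = 0.0333, rho = 0.72 with p = 0.00254; r = 0.61). The other 6 pairs that passed were Crh with Tac2, Trh, and, negatively, Oxtr (r = -0.55), Tac2 with Kiss1 and Gnrh1, and Ghrh with Pdyn. Their adjusted p was 0.045 to 0.0477 (permutation test).

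Leaving out 1 library moved these counts strongly. Without WT female 471, 2 pairs passed, Oxt with Avp (r = 0.80, adjusted p = 0.0216, permutation test) and Pdyn with Oxtr (r = 0.84, adjusted p = 0.0108), both among the 12. Over the 18 fits that each left out 1 library, 0 to 12 pairs passed, and in 14 of them the count fell by more than 1.5 times: 0 passed without Ube3a2X male 238 or Ube3a2X male 253, 2 without WT males 245 or 403, WT females 262 or 471, Ube3a2X male 267, or Ube3a2X female 420, 3 without WT female 398 or Ube3a2X female 417, 4 without WT female 410 or Ube3a2X female 272, 5 without WT male 251, and 6 without Ube3a2X male 258.

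**Figure D4:**
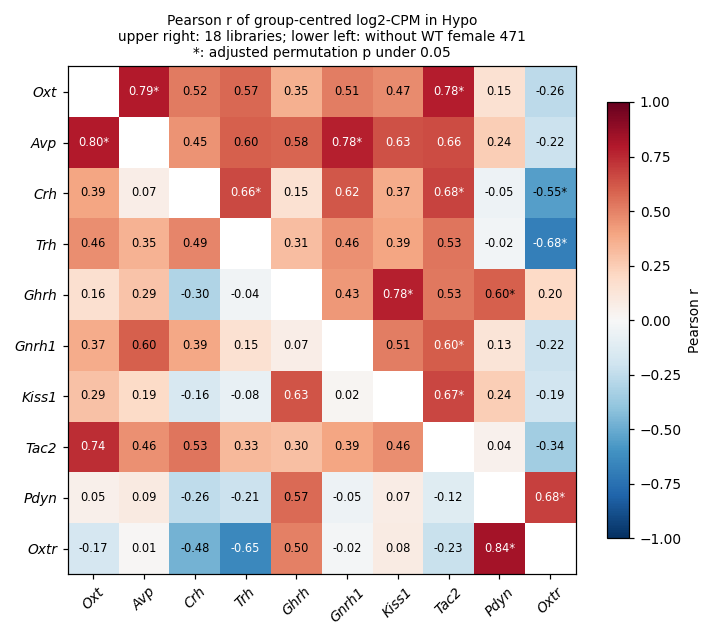
Pearson's r between the 10 genes after subtracting the mean of each Hypo group, as a grid coloured from -1 to 1, with all 18 libraries in the upper right and without WT female 471 in the lower left; stars mark an adjusted permutation p under 0.05. The upper right holds 12 stars and the lower left 2, for Oxt with Avp and Pdyn with Oxtr.

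**Figure D5:**
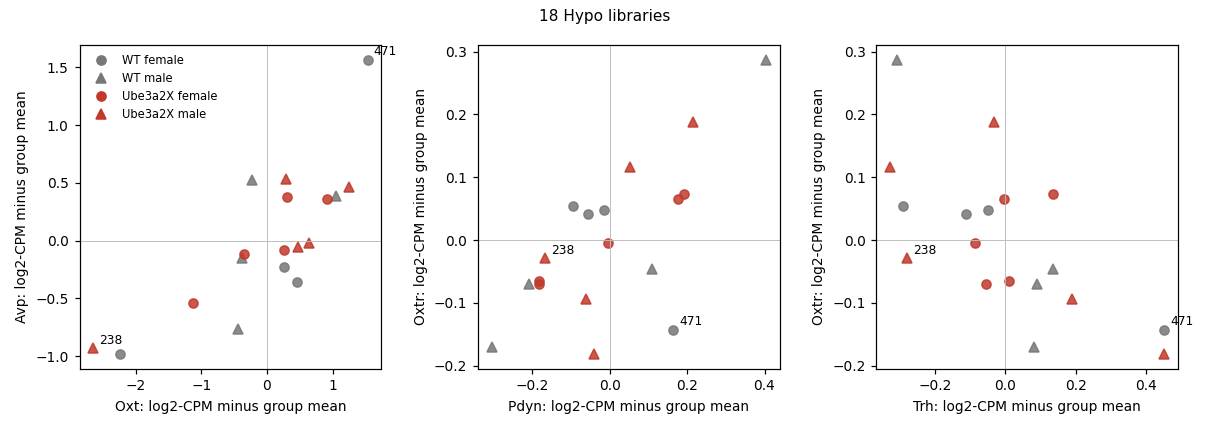
Log2-CPM minus the group mean in the 18 Hypo libraries for Avp against Oxt, Oxtr against Pdyn, and Oxtr against Trh, with a symbol for each library by sex and genotype. Oxt and Avp rise together (r = 0.79), with Ube3a2X male 238 at the lower left and WT female 471 at the upper right, and Oxtr falls as Trh rises (r = -0.68).

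Crh and Ghrh were the members that varied with a marker sum of the same libraries beyond the adjustment. Of 190 relations between the 10 members and 15 marker lists, RIN, depth, the bias between transcript ends, and strand, 3 passed an adjusted p of 0.05 in a permutation test (Benjamini-Hochberg over 190). Crh rose with the oligodendrocyte markers (r = 0.85, p = 3.0e-05, adjusted p = 0.0057, rho = 0.82 with p = 3.0e-05; r = 0.78 without the 2 farthest libraries and 0.79 without WT female 471) and fell with the sum of the ventromedial markers, mostly Gda and Lmo3 (r = -0.74, p = 0.0002, adjusted p = 0.019, rho = -0.79 with p = 0.00018; r = -0.72 and -0.68). Ghrh rose with the blood markers (r = 0.87, p = 0.00069, adjusted p = 0.0437, rho = 0.86 with p = 0.00021; r = 0.75 and 0.79). For Pdyn and Oxtr, r with the mammillary markers was -0.76 (rho = -0.61, adjusted p = 0.106) and -0.71 (rho = -0.62, adjusted p = 0.115), which did not pass. The part of these cells and nuclei in the shared variation of the members was not tested.

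The genes whose group-centred pattern was most like a member, among 15557 genes with a mean of at least 1 CPM in Hypo, are given as a description over the 18 libraries with no test. Oxt was followed most closely by Lor (r = 0.98), Zfand3 (0.97), and Romo1 (0.97), and Avp by Trappc5, Tmem100, and Pgd (each 0.93). Tac2 was followed by Atox1 (0.95), Nudt22 (0.94), and Rtl8a (0.94), Crh by Txnl4a (0.93), Lrrc3b (0.91), and Letm1 (0.91), and Ghrh by Tmem176a (0.91), S100a6 (0.90), and the haemoglobin gene Hbb-bs (0.88). Trh was followed by Gm20604 (0.88), Gmnn (0.88), and Gabarapl2 (0.87), Gnrh1 by Icam2 (0.89), Tnfaip8 (0.87), and Nap1l4 (0.86), Pdyn by Otulinl (0.87), Tor1b (0.84), and Tmem35a (0.83), and Oxtr by Umodl1 (0.85), Corin (0.84), and Prss30 (0.84). Kiss1 was followed by the 2 Gm28040 models that overlap it (each 0.9997) and then by Dok1 (0.94).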

How the data were processed

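Gene expression was measured in 18 Hypo and 20 PFC libraries. Per the labels and the methods of the study, stranded mRNA libraries were read from both ends, and the authors used STAR to align to GRCm38 and featureCounts to count reads on the genes of Gencode v24; their versions are not given in the sources used here. The deposited values are raw read counts per gene, without normalization or filter. Gene coordinates, exon lengths, transcripts, and overlapping gene models given here are from GENCODE vM21 instead. It held 53905 of the 54165 genes of the count table, and the exon bases on which the authors counted may differ. The deposited table of quality measures gives RIN as a score, how many reads fell on the expected strand and how many bases were intronic, each as a fraction, and the bias between transcript ends as a ratio.

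Counts were analysed in R 4.3.3 with edgeR 4.0.16 (TMM, glmQLFit with robust estimation, glmQLFTest) and Benjamini-Hochberg adjustment over all genes tested, called at an adjusted p under 0.05. Hypo was modelled after the study, with edgeR in place of voom: a gene was dropped if at least 2 libraries had under 100 reads of it, as were then the 15% of lowest variance, and the 4 groups, RIN, and 2 surrogate variables (sva 3.50.0) were fitted. This filter, applied to the deposited counts as the methods word it, left 11869 genes, which is not the number the study retained. Crh, Gnrh1, and Kiss1 did not pass the read filter and were taken from the same fit with filterByExpr. The tissues were compared over all 38 libraries with 8 groups and RIN, after filterByExpr on these groups. Alternatives used limma 3.58.1 (voom), DESeq2 1.42.0, RLE factors, other filters and covariates, the mouse as a block, and leaving out each library. Correlations used log2-CPM (prior count 2) and 100000 permutations within groups. The scripts were tested on simulated counts. Intervals of fold changes are 95% normal intervals from the SE.

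Mouse numbers in the labels mark the same animal in both tissues in 13 mice. The deviations of the paired libraries from their group means correlated at r = -0.31 to 0.21 over 22282 genes (median -0.01), above 0.1 in 2 mice. Between Hypo libraries of a group, counts differed by 11.5 to 502 times the sampling noise over 32 pairs; this spread covers mouse, dissection, and library, which cannot be told apart.

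The members, gene lists, and tests were chosen with earlier results of these data known. Named genes are the members, the 3 genes most like each over Hypo, and the called genes of each list with the smallest p, at most 2 per direction between tissues and 3 within Hypo. Figures were drawn with matplotlib 3.10.9.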

Additional observations from a re-analysis of the deposited data

Results flagged for a closer look

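Of 60 groups of 4 or 5 libraries with at least 10 reads of the gene in each, 4 held a library whose log2 level stood apart from the rest, by the gap to its nearest neighbour divided by the range of the group. Chance flags about 1 in 20 groups. Oxt in Ube3a2X male 238 (gap 0.753 of the range) was at 2.59 CPM against 20.05 to 39.1 CPM in the other Ube3a2X males, and this library was also the lowest of all Hypo libraries for Ghrh, Gnrh1, Kiss1, and Tac2. Trh in WT male 245 (0.842) was at 90.5 CPM against 117 to 122 CPM. Kiss1 in Ube3a2X female 462 (0.799) was at 2.21 CPM against 0.925 to 1.10 CPM. Tac2 in Ube3a2X female 420 (0.828) was at 26.1 CPM against 19.6 to 20.6 CPM.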

How the results depend on the processing

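Between tissues, the 9 calls of Oxt, Avp, Ghrh, Trh, Gnrh1, Kiss1, Tac2, Pdyn, and Crh kept their direction and their call under every alternative in which the gene was tested. With the mouse as replicate block and without RIN, edgeR over the 13 mice with both tissues called 16301 genes and 10 members, Oxtr among them. The main fit called 14116 and 9. With the block and RIN together, limma-voom over all libraries called 14074 and 9, without Oxtr. No other call of a member differed with the block. The filter of the study kept 2 members called and 8324 genes, since fewer genes were tested. For genotype, DESeq2 called 5 genes on average, 3 in females, and 17 in males, the wider filter 2 and 3, and limma-voom and the fit without covariates 1 each in males. For sex, DESeq2 called 662 genes, RIN alone 7, and no covariates 12, with 0 members by RIN alone and 1 without covariates. Of the 45 pairs, 5 passed by Spearman's rho. The causes of these shifts were not tested.

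Over these settings the genotype value was -0.98 to -0.22 for Oxt, -0.88 to -0.32 for Avp, and -0.38 to -0.19 for Trh on average, and -1.45 to -0.35 for Oxt and -1.46 to -0.60 for Avp in females, with 0 called; the values farthest from 0 came with RIN alone or without covariates. Signs turned only for values that had not been called. With RIN alone, the genotype value of Crh was -0.50 on average, -0.55 in females, and -0.45 in males, that of Oxtr 0.026, and that of Trh in females -0.17, while the sex by genotype value of Oxt was 0.88 and of Kiss1 0.77. Without covariates, Oxtr was 0.057, Trh in females -0.17, the sex by genotype value of Oxt 1.10, and the sex value of Avp -0.0079. With the wider filter, Pdyn in females was 0.021, Oxt in males 0.19, Tac2 in males 0.15, and the sex by genotype values of Oxt and Ghrh 0.83 and -0.11; limma-voom gave Gnrh1 0.022. The alternatives for Crh, Gnrh1, and Kiss1 were chosen after seeing the data.

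Leaving out 1 library at a time gave 12046 to 15098 genes and 9 to 10 members between tissues, 1 to 12 genes for genotype, 0 to 2 in females, 0 to 49 in males (49 without WT male 403), 0 to 0 for sex by genotype, 83 to 663 genes and 1 to 3 members for sex, and 0 to 12 pairs. The values that turned ranged, for genotype on average, over -0.032 to 0.17 (Crh), -0.057 to 0.090 (Gnrh1), and -0.055 to 0.058 (Oxtr); in females over -0.18 to 0.26 (Crh), -0.044 to 0.065 (Trh), and -0.080 to 0.048 (Pdyn); in males over -0.43 to 0.11 (Avp), -0.20 to 0.27 (Crh), -0.35 to 0.031 (Ghrh), -0.083 to 0.12 (Tac2), and -0.17 to 0.037 (Oxtr); for sex by genotype over -0.68 to 0.52 (Oxt), -0.38 to 0.40 (Crh), -0.047 to 0.32 (Ghrh), and -0.78 to 0.22 (Kiss1); and for sex over -0.34 to 0.10 (Oxt) and -0.14 to 0.022 (Trh). RLE factors moved no median of all genes by 0.1 or more.

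In PFC, depth limits Oxt, Avp, and Ghrh, which had 6, 21, and 39 reads over all 20 libraries.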
